A study of Mus musculus with 8 samples.

Results

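Motile cilia are microtubule-based organelles that beat to move fluid, and the axoneme is their internal scaffold of microtubules, dynein arms, radial spokes and a central pair. The 68 genes described here were found by symbol among the 19884 genes of the table. They comprise the axonemal dynein heavy and intermediate chain families (Dnah, Dnai), the numbered Cfap, Rsph, Tekt and Dnaaf families, and 9 named genes (Ccdc39, Ccdc40, Hydin, Spag6, Spag17, Dynlrb2, Ccdc153, Tmem212 and Sec14l3). RNA was sequenced from whole uterus and whole brain of untreated, wild-type C57BL/6J females that were 6 to 10 weeks old and on day 4 of gestation, with 4 libraries per organ and 1 animal's organ per library. All mice had mated with fertile males, and the protocol text says that blastocysts in the uterine flush marked pregnancy. Whether the uterus and the brain of 1 number came from the same mouse is not stated.

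The outer and inner dynein arms are rows of motor complexes on the doublet microtubules that make them slide, and the radial spokes and central pair regulate those motors. Arms are put together in the cytoplasm by dynein assembly factors before they enter the cilium. In mouse brain, multiciliated ependymal cells line the ventricles and move cerebrospinal fluid. In the female tract, motile cilia are abundant in the oviduct and sparse in the uterine epithelium.

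Library totals were 35394603 to 40254254 counts in uterus and 40115616 to 47790178 counts in brain, so that a count of 0 in a library allows a level of up to 0.0692 to 0.0810 CPM (counts scaled to the library size after TMM; the limit is 3 counts and covers counting error only). The 5 uterus markers (Pgr, Esr1, Des, Hoxa10, Hoxa11) were all higher in uterus, and the 5 brain markers (Snap25, Syt1, Mbp, Rbfox3, Gfap) were all higher in brain by edgeR's quasi-likelihood test. The 7 uterine epithelial markers, among them Epcam at 116 ± 8.26 CPM in uterus against 0.327 ± 0.0966 CPM in brain (SD, n = 4 each), were also all higher in uterus. Between whole organs most genes differ: 13970 of 16074 tested genes passed at an adjusted p of 0.05 (86.9%). In whole tissue, fewer cells of a type and less RNA per cell cannot be told apart.

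Of the 68 genes, 63 passed the filter on low counts and were tested. Among these, 9 were higher in uterus, which is 14.3% against a background of 43.4% of all tested genes. Another 46 were higher in brain, which is 73.0% against a background of 43.5%, and 8 did not pass. The median log2 fold change of uterus over brain was -1.57 for the tested members, also with Sec14l3 (0 counts in uterus) placed at its bound, and 0.01 for all tested genes. Against a 2-fold change, 5 members were higher in uterus (background 23.5%) and 36 were higher in brain (background 25.7%), and the background in either direction was 49.3%. The filter's minimum was reached in all 8 libraries by 39 members. Another 24 members reached it in all 4 brain libraries and not in all 4 uterus libraries. Members of the second kind passed the filter through their brain libraries, so the filter favoured a direction toward brain among them. Not all of them were called, since Cfap53 and Cfap77 did not pass the test. The counts of calls are therefore a description of the members.

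In 9 of the 63 tested members every uterus library was above every brain library (background 42.0%), in 44 every brain library was above every uterus library (background 42.0%), and in 10 the organs overlapped. The 5 members that were not tested, Rsph6a, Rsph14, Cfap221, Tekt3 and Cfap58, averaged 0.0948 to 0.362 CPM in brain, and all their brain libraries lay above all their uterus libraries. Uterus held 31 members at 1 CPM or more in all 4 libraries, and brain held 55. At the low end, 34 members in uterus and 10 in brain were under 1 CPM in all 4 libraries of the organ. Summed over the 68 genes, uterus libraries gave 298 to 325 CPM and brain libraries gave 487 to 527 CPM.

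**Figure D1:**
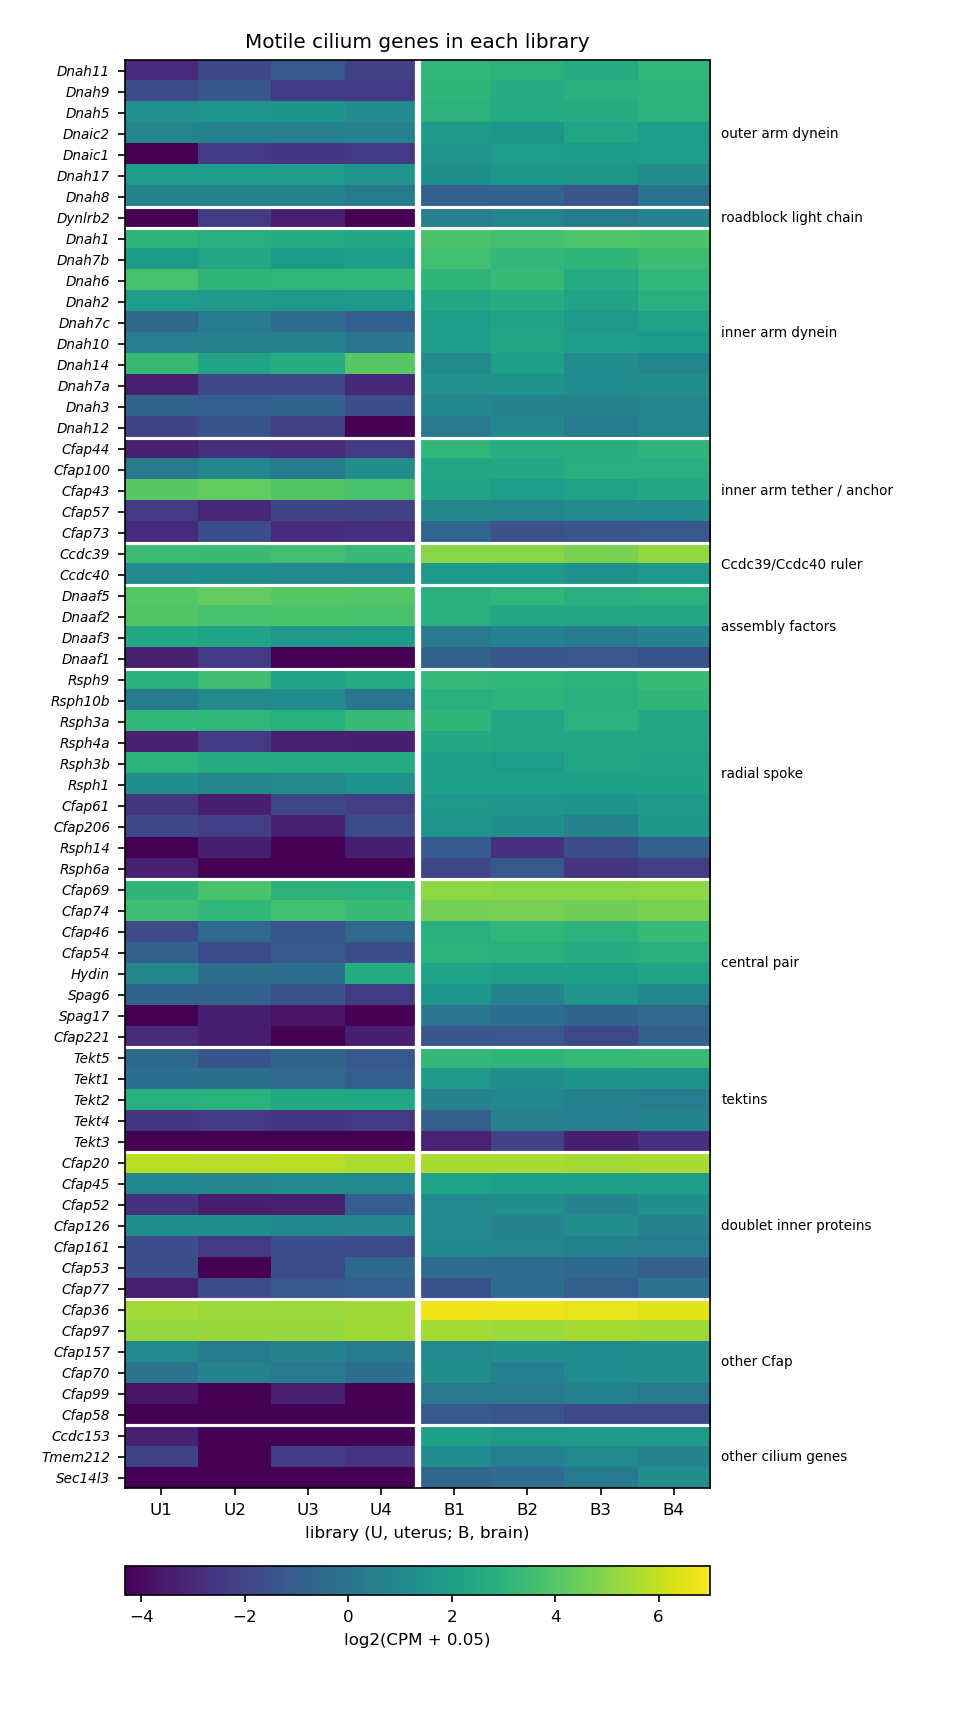
Level of each of the 68 motile cilium genes (rows, grouped by role) in each uterus library (U1 to U4) and brain library (B1 to B4), as colour on the scale log2(CPM + 0.05). Cfap36, Cfap20 and Cfap97 are bright in all 8 libraries, most other rows are darker in uterus, and Tekt2, Cfap43, Dnaaf2, Dnaaf3, Dnaaf5 and Dnah14 are brighter in uterus.

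**Figure D2:**
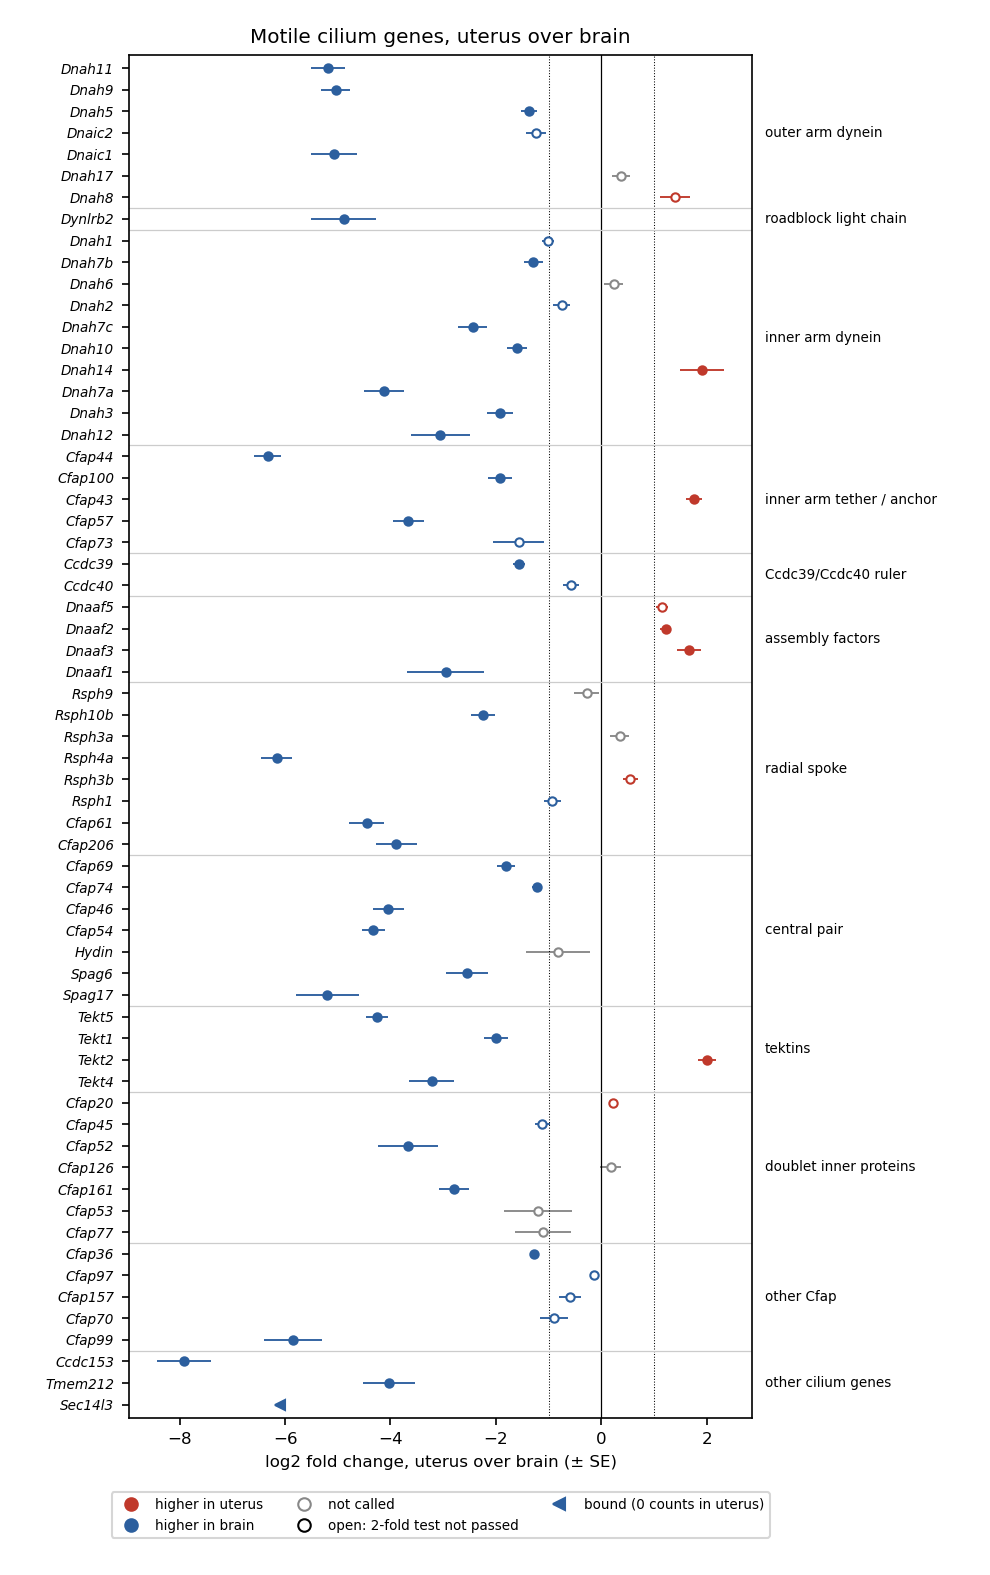
Log2 fold change of uterus over brain with its SE for the 63 tested genes, by role, with dotted lines at a 2-fold change. Red points are the 9 genes higher in uterus, blue points the 46 higher in brain and grey points the 8 that did not pass; open symbols did not pass the 2-fold test. The triangle for Sec14l3 is a bound, and the points of Ccdc153, Cfap99 and Spag17 rest on 2 or 3 uterus counts.

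Promoters were taken from RefSeq on GRCm38.p6 (250 nt before to 50 nt after the start), and 58 of the 68 genes had an entry. They were searched on both strands for GTNNCCNNGGNNAC and for the forkhead motif TGTTTAC. The first is a strict form of the X-box, the palindromic site that RFX factors bind in ciliary genes. The X-box letters stood in 6 of the 58 genes (10.3%), and in 2.16% of all 27025 genes with an entry. Only exact matches were counted, so sites that depart from these letters or this spacing were missed. The Cfap44 window, for example, holds gttgctatggcaac and was counted as having no X-box. Forkhead letters stood in 4 of the 58 (6.9%) and in 4.05% of all genes. Below, 4 matches are shown because their genes take different directions between the organs: Cfap206 was higher in brain, Rsph9 did not pass the test, and Dnaaf5 and Cfap43 were higher in uterus. Capitals mark the X-box in the first 3, which begins at -23, -6 and -18 from the start site in the order printed, and the forkhead motif in Cfap43, which begins at -55.
Cfap206 (chr4:34730157-34730456, minus strand): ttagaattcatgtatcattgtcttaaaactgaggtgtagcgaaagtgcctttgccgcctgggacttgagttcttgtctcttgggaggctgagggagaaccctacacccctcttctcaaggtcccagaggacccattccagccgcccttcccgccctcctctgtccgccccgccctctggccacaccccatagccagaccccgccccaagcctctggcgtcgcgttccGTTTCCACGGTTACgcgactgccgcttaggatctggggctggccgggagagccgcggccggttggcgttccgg
Rsph9 (chr17:46144151-46144450, minus strand): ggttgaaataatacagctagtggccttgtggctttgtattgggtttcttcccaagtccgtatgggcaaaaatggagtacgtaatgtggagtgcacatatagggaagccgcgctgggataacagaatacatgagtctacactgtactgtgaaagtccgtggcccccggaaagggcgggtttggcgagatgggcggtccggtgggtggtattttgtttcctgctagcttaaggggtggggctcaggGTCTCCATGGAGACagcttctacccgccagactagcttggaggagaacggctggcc
Dnaaf5 (chr5:139149985-139150284, plus strand): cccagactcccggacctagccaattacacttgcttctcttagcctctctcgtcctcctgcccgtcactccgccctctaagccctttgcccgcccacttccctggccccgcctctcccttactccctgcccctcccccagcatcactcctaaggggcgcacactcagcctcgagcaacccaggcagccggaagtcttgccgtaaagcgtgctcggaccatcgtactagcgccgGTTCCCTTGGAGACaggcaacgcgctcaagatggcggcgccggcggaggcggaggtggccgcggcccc
Cfap43 (chr19:47837312-47837611, minus strand): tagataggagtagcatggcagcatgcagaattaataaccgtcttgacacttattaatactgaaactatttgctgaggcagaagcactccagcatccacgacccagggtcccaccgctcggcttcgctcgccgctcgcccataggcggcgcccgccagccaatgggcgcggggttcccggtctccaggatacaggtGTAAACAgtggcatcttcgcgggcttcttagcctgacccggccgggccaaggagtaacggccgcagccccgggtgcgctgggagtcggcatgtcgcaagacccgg
In Cfap43 the printed strand carries the motif's reverse complement. The other X-box letters were found in Cfap126, Cfap77 and Tekt4, and the other forkhead letters in Cfap20, Dnah17 and Tekt3. A match of letters is a description of the window and shows no binding.

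Outer arm heavy chains are the motors of the outer row. Of the 5 genes, 1 was higher in uterus (Dnah8), 3 were higher in brain (Dnah5, Dnah9, Dnah11) and 1 did not pass (Dnah17). Dnah11, a beta-type heavy chain of airway cilia, measured 0.0755, 0.212, 0.380 and 0.186 CPM in uterus libraries 1 to 4, against 8.82, 7.66, 6.17 and 8.80 CPM in brain libraries 1 to 4 (log2 fold change -5.19 ± 0.32, adjusted p = 8.3e-08). Dnah9, the other beta-type chain, measured 0.252, 0.353, 0.152 and 0.140 CPM in uterus, against 8.55, 6.20, 7.18 and 8.04 CPM in brain (-5.04 ± 0.27, adjusted p = 2.2e-08). Every uterus library was under 0.5 CPM for both genes and every brain library was far above it. Dnah5, the gamma-type heavy chain, measured 2.62, 2.96, 2.89 and 2.14 CPM in uterus, against 7.58, 6.16, 6.19 and 7.54 CPM in brain (-1.37 ± 0.15, adjusted p = 9.1e-06). Its organs did not overlap either, but all 4 uterus libraries were above 2 CPM. With library-size scaling Dnah5 stayed higher in brain and no longer passed the 2-fold test (-1.11, adjusted p = 0.182).

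Dnah17 and Dnah8 are known as the outer arm heavy chains of the sperm flagellum. Dnah8 measured 1.61, 1.58, 1.60 and 1.26 CPM in uterus, against 0.513, 0.553, 0.346 and 0.875 CPM in brain (1.40 ± 0.29, adjusted p = 9.8e-04). All uterus libraries were above all brain libraries, the 2-fold test was not passed (adjusted p = 0.0621), and it was passed without uterus library 4 (1.49, adjusted p = 0.0442) or without brain library 4 (1.67, adjusted p = 0.0107). Dnah17 measured 3.62, 3.83, 3.83 and 2.96 CPM in uterus, against 2.46, 3.11, 3.10 and 2.36 CPM in brain (0.37 ± 0.17, adjusted p = 0.0582). Its organs overlapped through uterus library 4, without which the value was 0.46 (adjusted p = 0.0258), and without brain library 2 it was 0.44 (adjusted p = 0.0495). With upper-quartile or library-size scaling Dnah17 was also called higher in uterus (0.62 and 0.63, adjusted p = 0.00511 and 0.00527), and Dnah8 passed the 2-fold test (1.65 in each, adjusted p = 0.0126 and 0.0129). Of the 8 markers of haploid germ cells in the table, 6 (Prm1, Prm2, Tnp2, Odf1, Akap4 and Smcp) averaged at most 0.126 CPM in uterus and at most 0.184 CPM in brain. Spem1 averaged 0.234 ± 0.0996 CPM in uterus and 0.376 ± 0.155 CPM in brain, and Gapdhs, the sperm form of a glycolytic enzyme, averaged 1.80 ± 0.259 CPM in uterus and 2.73 ± 0.423 CPM in brain (SD, n = 4 each; -0.60 ± 0.18, adjusted p = 0.0103). The 8 markers summed to 2.01 to 2.46 CPM in uterus and 2.89 to 4.04 CPM in brain.

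Intermediate chains anchor the outer arm, and both were higher in brain, by very different amounts. Dnaic1 measured 0, 0.141, 0.127 and 0.140 CPM in uterus, against 2.97, 3.74, 3.51 and 4.02 CPM in brain (-5.07 ± 0.43, adjusted p = 9.7e-07). Dnaic2 measured 1.81, 1.50, 1.47 and 1.58 CPM in uterus, against 3.32, 3.11, 4.97 and 3.67 CPM in brain (-1.24 ± 0.19, adjusted p = 1.3e-04). Neither gene's organs overlapped. Dnaic2 passed the 2-fold test only without brain library 2 (-1.31, adjusted p = 0.0497). Per kb of exon, the level of Dnaic2 was 9.52 times that of Dnaic1 in uterus and 0.644 times in brain. Dynlrb2, a roadblock light chain, measured 0, 0.141, 0.0507 and 0 CPM in uterus, against 1.46, 1.80, 1.20 and 1.63 CPM in brain (-4.89 ± 0.61, adjusted p = 2.1e-05). It had 8 uterus counts in all, 6 of them in library 2, and without that library the value was -6.29.

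Inner arm heavy chains shape the waveform of the beat. Of the 10 genes, Dnah14 was higher in uterus, 8 were higher in brain and Dnah6 did not pass. Dnah1 had the highest level per kb of them in brain and measured 8.10, 6.96, 6.31 and 5.73 CPM in uterus, against 14.1, 12.1, 14.6 and 13.9 CPM in brain (-1.01 ± 0.12, adjusted p = 2.0e-05). Dnah2 measured 3.85, 3.39, 3.19 and 3.45 CPM in uterus, against 5.56, 6.32, 4.50 and 7.02 CPM in brain (-0.75 ± 0.16, adjusted p = 0.00117). For both genes the organs did not overlap, and neither passed the 2-fold test. Dnah6 measured 13.1, 8.51, 8.75 and 9.11 CPM in uterus, against 8.34, 9.82, 6.28 and 8.92 CPM in brain (0.24 ± 0.18, adjusted p = 0.222). Its organs overlapped, with the highest value in uterus library 1. With upper-quartile or library-size scaling Dnah6 was higher in uterus (0.50, adjusted p = 0.024 and 0.0211).

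Dnah14 was the most variable member in both organs among the 30 members at 1 CPM or more in all 8 libraries, with a coefficient of variation of 55.5% in uterus and 42.6% in brain. It measured 10.3, 4.89, 6.34 and 16.8 CPM in uterus, against 2.05, 4.13, 2.17 and 1.77 CPM in brain (1.91 ± 0.42, adjusted p = 0.00194; 2-fold test, adjusted p = 0.0186). The lowest uterus library was just above the highest brain library. The 2-fold test was not passed without uterus library 4 (1.51, adjusted p = 0.0516) or without brain library 4 (1.77, adjusted p = 0.0525), nor by limma-voom (1.83, adjusted p = 0.122) or DESeq2 (1.87, adjusted p = 0.0552). Its exons share 440 nt (2.7%) with Lbr on the opposite strand, and Lbr averaged 61.7 CPM in uterus against 17.6 CPM in brain (log2 fold change 1.81). The strand setting of the counting is not given in the sources used here, and the part of Lbr reads in the Dnah14 counts was not tested.

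Dnah7a, Dnah7b and Dnah7c are copies with 12603 to 19980 nt of exon that share stretches of up to 612 nt at 98% identity or more. Counts from such stretches may be split between them. Dnah7b measured 3.50, 5.45, 3.58 and 3.92 CPM in uterus, against 11.7, 8.97, 8.34 and 11.2 CPM in brain (-1.29 ± 0.18, adjusted p = 5.5e-05). Its pass of the 2-fold test (adjusted p = 0.0411) was lost without uterus libraries 1, 3 or 4 or brain libraries 1 or 4, each left out in turn (-1.19 to -1.25, adjusted p = 0.0727 to 0.114). It was also lost with upper-quartile or library-size scaling (-1.03 in each, adjusted p = 0.365 and 0.374), DESeq2 (-1.33, adjusted p = 0.166) and limma-voom (-1.28, adjusted p = 0.152). Dnah7c averaged 0.770 ± 0.322 CPM in uterus and 4.20 ± 0.638 CPM in brain, and Dnah7a averaged 0.140 ± 0.0928 CPM in uterus and 2.49 ± 0.248 CPM in brain (SD, n = 4 each). Summed over the 3 copies, the level was 5.02 ± 1.25 CPM in uterus and 16.7 ± 1.99 CPM in brain (-1.73 ± 0.17, adjusted p = 3.4e-06). The remaining inner arm genes, Dnah3, Dnah10 and Dnah12, were all higher in brain and past the 2-fold test, with averages of 0.177 to 1.35 CPM in uterus and 1.49 to 4.09 CPM in brain.

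Inner arms are anchored and tethered by a further 5 Cfap genes, of which Cfap43 was higher in uterus and 4 were higher in brain. Cfap43 and Cfap44 form the tether of an inner arm in motile cilia and flagella. Cfap43 measured 17.3, 19.3, 15.2 and 13.5 CPM in uterus, against 4.83, 3.99, 4.67 and 5.79 CPM in brain (1.76 ± 0.15, adjusted p = 1.0e-06). Cfap44, named as its partner after the values were seen, measured 0.0503, 0.0940, 0.0761 and 0.140 CPM in uterus, against 8.80, 6.69, 6.68 and 8.06 CPM in brain (-6.33 ± 0.26, adjusted p = 2.5e-09). The partners lay apart in opposite directions with no overlap between organs for either. Per kb of exon, the level of Cfap43 was 215 times that of Cfap44 in uterus, with single libraries from 115 to 408 times, and 0.760 times in brain, with single libraries from 0.654 to 0.855 times. The GENCODE model of Cfap43 (chr19:47736857-47919287) starts upstream of the RefSeq start printed above and shares 164 nt with Itprip on the same strand, and Itprip was not analysed here. Which exons the Cfap43 counts came from is not resolved in a table of counts per gene. Cfap57 and Cfap100 were past the 2-fold test toward brain, and Cfap73, a coiled-coil partner of Cfap100, averaged 0.132 ± 0.101 CPM in uterus and 0.405 ± 0.130 CPM in brain (SD, n = 4 each). Cfap73 was higher in brain (-1.57 ± 0.49, adjusted p = 0.0112), and its value was -2.25 without uterus library 2.

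Ccdc39 and Ccdc40 are the coiled-coil pair that acts as a ruler for the spacing of spokes and inner arms along the axoneme, and both were higher in brain. Ccdc39 measured 10.7, 10.5, 11.8 and 9.86 CPM in uterus, against 31.9, 31.6, 26.1 and 37.4 CPM in brain (-1.56 ± 0.11, adjusted p = 2.6e-07). Ccdc40 measured 2.11, 2.26, 1.98 and 2.05 CPM in uterus, against 3.24, 3.32, 2.66 and 3.24 CPM in brain (-0.57 ± 0.15, adjusted p = 0.00485). For both genes every brain library was above every uterus library. The Ccdc40 call was lost with upper-quartile or library-size scaling (-0.31 in each, adjusted p = 0.0741 and 0.0793). Ccdc39 shares 1256 nt of exon (16.9%) with Ttc14 on the opposite strand, at 151 CPM in uterus and 233 CPM in brain.

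The assembly factors among the members are the 4 Dnaaf genes only. Theirs was the 1 role whose median lay toward uterus (1.19), with 3 of 4 genes higher there (background 43.4%). Lrrc6 (-6.34 ± 0.35), Zmynd10 (-2.55 ± 0.29), Ccdc103 (-1.44 ± 0.33) and Spag1 (-1.34 ± 0.10), assembly genes outside the 68, were all higher in brain. Pih1d3, another assembly gene outside the 68, had 0 counts in every library. The lean toward uterus is that of Dnaaf2, Dnaaf3 and Dnaaf5, and no direction is given for arm assembly as a whole. Dnaaf5, a HEAT-repeat protein, measured 16.0, 19.1, 16.3 and 15.6 CPM in uterus, against 7.34, 8.67, 6.74 and 7.38 CPM in brain (1.15 ± 0.11, adjusted p = 2.2e-06). Dnaaf2, a PIH-domain protein that works with heat-shock chaperones, measured 15.1, 13.6, 13.9 and 13.4 CPM in uterus, against 6.99, 5.72, 5.66 and 5.63 CPM in brain (1.22 ± 0.10, adjusted p = 1.0e-06). Dnaaf3 measured 5.61, 4.89, 3.19 and 3.50 CPM in uterus, against 1.16, 1.50, 1.18 and 1.56 CPM in brain (1.67 ± 0.23, adjusted p = 4.8e-05). For all 3 genes the lowest uterus library was above the highest brain library. Dnaaf2 and Dnaaf3 passed the 2-fold test, and Dnaaf5 did not (adjusted p = 0.0559), though it did with uterus library 1, uterus library 4 or brain library 2 left out (adjusted p = 0.0453, 0.0326 and 0.0142) and with upper-quartile or library-size scaling (1.41 in each, adjusted p = 8.0e-04 and 8.9e-04). Dnaaf2 did not pass it by DESeq2 (1.18, adjusted p = 0.203).

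Dnaaf1, a leucine-rich repeat protein and the fourth of the Dnaaf genes, went the other way. It measured 0.0503, 0.141, 0 and 0 CPM in uterus, against 0.567, 0.346, 0.370 and 0.307 CPM in brain (-2.95 ± 0.73, adjusted p = 0.00266). Its uterus level rests on 8 counts, 6 of them in library 2, without which the value was -4.35. Exons of all 4 assembly genes overlap other annotated genes, Dnaaf1 with Taf1c over 20.7% of its length. Dnaaf2 shares 32.7% of its exon length with 9330151L19Rik on the opposite strand, which averaged 13.7 CPM in uterus and 18.1 CPM in brain. Dnaaf2 also shares 22.3% and 20.6% with Gm49383 and Gm49384 on its own strand, which were not analysed here. Dnaaf3 shares 12.6% with Gm15873 and Dnaaf5 shares 10.6% with Gm15672, both on the opposite strand and not analysed here.

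Radial spokes link the doublets to the central pair. Of 10 spoke genes, 8 were tested, and Rsph3b was higher in uterus, 5 were higher in brain, and Rsph9 and Rsph3a did not pass. Rsph9, a spoke-head protein, measured 7.17, 11.4, 4.82 and 6.25 CPM in uterus, against 9.15, 8.90, 7.92 and 10.1 CPM in brain (-0.28 ± 0.23, adjusted p = 0.272). Its organs overlapped only through uterus library 2, and without that library the value was -0.57 (adjusted p = 0.00722). Rsph1, also of the spoke head, measured 2.44, 1.79, 1.98 and 2.68 CPM in uterus, against 4.21, 4.22, 4.16 and 4.40 CPM in brain (-0.93 ± 0.16, adjusted p = 3.2e-04). Its brain libraries were all above its uterus libraries, by less than the 2-fold test asks. Rsph4a, the spoke-head scaffold of motile cilia, measured 0.0503, 0.141, 0.0507 and 0.0466 CPM in uterus, against 6.10, 5.17, 5.29 and 5.16 CPM in brain (-6.16 ± 0.29, adjusted p = 8.4e-09). It was named as the partner of Rsph9 after the values were seen, and the level of Rsph9 per kb was 234 times that of Rsph4a in uterus and 3.79 times in brain. Rsph6a, the sperm counterpart of Rsph4a, had 2 uterus counts and 36 brain counts, a ratio of 17.8 for brain over uterus (exact 95% interval 4.60 to 153).

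Rsph3a and Rsph3b, which code for a spoke-stalk protein, share 1823 nt of near-identical transcript, so that their split is uncertain. Rsph3b measured 7.37, 6.32, 6.21 and 6.18 CPM in uterus, against 4.24, 3.62, 5.22 and 4.75 CPM in brain (0.55 ± 0.14, adjusted p = 0.00423). Rsph3a measured 8.99, 8.77, 6.72 and 9.76 CPM in uterus, against 8.55, 5.44, 7.46 and 5.37 CPM in brain (0.35 ± 0.18, adjusted p = 0.0909). Organs did not overlap for Rsph3b and did for Rsph3a, whose value was 0.46 without uterus library 3 (adjusted p = 0.036) and 0.50 without brain library 1 (adjusted p = 0.0251). With upper-quartile or library-size scaling Rsph3a was called higher in uterus (0.61 in each, adjusted p = 0.00936 and 0.0089). The pair summed to 15.1 ± 1.53 CPM in uterus and 11.2 ± 1.87 CPM in brain (0.43 ± 0.13, adjusted p = 0.0102). Cfap61 and Cfap206, which sit at the spoke base, were -4.45 ± 0.33 and -3.89 ± 0.39, and Rsph10b was -2.24 ± 0.23, all past the 2-fold test toward brain. Cfap206 averaged 0.169 ± 0.0845 CPM in uterus and 2.57 ± 0.683 CPM in brain (SD, n = 4 each).

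Of the 8 central pair genes, 7 were tested, and 6 of these were higher in brain, all 6 past the 2-fold test. Cfap69 had the highest level per kb of them and measured 8.56, 13.2, 7.76 and 7.48 CPM in uterus, against 33.3, 31.2, 31.2 and 33.3 CPM in brain (-1.80 ± 0.17, adjusted p = 2.7e-06). Cfap74 averaged 10.7 ± 1.33 CPM in uterus and 24.9 ± 1.02 CPM in brain, while Cfap46 and Cfap54 were under 1 CPM in every uterus library and between 6.44 and 9.72 CPM in every brain library. Spag6, an armadillo-repeat protein of the central pair, averaged 0.403 ± 0.209 CPM in uterus and 2.37 ± 0.703 CPM in brain (SD, n = 4 each). Spag17 had 3 uterus counts and 128 brain counts, a ratio of 42.3 for brain over uterus (exact 95% interval 14.2 to 208), and its fitted value was -6.12 without uterus library 2. Cfap74 did not pass the 2-fold test with upper-quartile or library-size scaling (-0.97 and -0.96, adjusted p = 0.625 and 0.635).

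Hydin, a giant protein of a central pair projection, stood apart from the rest of its role. It measured 1.81, 0.846, 0.837 and 6.36 CPM in uterus, against 4.48, 3.92, 4.27 and 4.85 CPM in brain (-0.82 ± 0.60, adjusted p = 0.218). Uterus library 4 was above all brain libraries and the other 3 uterus libraries were below them. Without library 4 the value was -1.89 (adjusted p = 8.6e-05, and 0.00239 in the 2-fold test). With all libraries kept, limma-voom called Hydin higher in brain (-1.34, adjusted p = 0.0232), as it did Cfap53 (-2.13, adjusted p = 0.0461). The same library had the highest uterus level of Dnah14 (16.8 CPM), Cfap53 (0.629 CPM, against 0 to 0.277 CPM in the other 3) and Cfap52 (0.466 CPM, against 0.0470 to 0.101 CPM). Without it, Cfap53 was -1.91 (adjusted p = 0.0155; -1.20 ± 0.65, adjusted p = 0.105 with it) and Cfap52 was -4.97 (-3.66 ± 0.57 with it). That library was also the highest of the uterus libraries in the 3 genes listed as oviduct markers. These were Ovgp1 (51.5 CPM, against 12.9 to 32.1 CPM), Pax2 (17.2 CPM, against 8.77 to 10.3 CPM) and Pax8 (60.2 CPM, against 42.4 to 52.0 CPM). It was the highest too in Myb (7.01 CPM, against 1.65 to 3.22 CPM) and in the neuronal gene Snap25 (1.38 CPM, against 0.227 to 0.329 CPM). The part of these in the Hydin value was not tested. Syt1 (1.49 CPM, against 0.423 to 0.705 CPM) and Gfap (3.52 CPM, against 1.50 to 2.14 CPM) were also highest in library 4. Rbfox3 (0.932 CPM, against 1.01 to 1.75 CPM) and Mbp (6.99 CPM, against 7.30 to 8.65 CPM) were lowest in it. Among members, Spag6 (0.140 CPM, against 0.330 to 0.579 CPM) and Tekt1 (0.466 CPM, against 0.685 to 0.846 CPM) were lowest in it too. The regulator Foxj1 was highest in library 1 (0.931 CPM, against 0.816 CPM in library 4). Over the 31 members at 1 CPM or more in all uterus libraries, the mean deviation of library 4 from the uterus mean was -0.066 on the log2 scale, within the range of the 4 libraries (-0.067 to 0.075).

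Tektins are filament proteins in the wall of the doublets. Of 5 genes, 4 were tested, with Tekt2 higher in uterus and Tekt1, Tekt4 and Tekt5 higher in brain. Tekt2 measured 6.82, 7.50, 5.58 and 5.48 CPM in uterus, against 1.59, 1.91, 1.50 and 1.35 CPM in brain (2.0 ± 0.17, adjusted p = 1.3e-06). Tekt5, known from the sperm flagellum in mammals, measured 0.629, 0.329, 0.583 and 0.373 CPM in uterus, against 9.04, 8.55, 9.38 and 9.74 CPM in brain (-4.26 ± 0.21, adjusted p = 1.0e-08). Tekt1 measured 0.805, 0.846, 0.685 and 0.466 CPM in uterus, against 3.29, 2.44, 2.89 and 2.65 CPM in brain (-2.00 ± 0.23, adjusted p = 1.2e-05). The organs did not overlap in any of these 3 genes, and Tekt1 is given in full as a partner chosen after its values were seen, as is Tekt5. Per kb, the level of Tekt2 was 7.73 times that of Tekt1 in uterus and 0.481 times in brain. Exons of Tekt2 overlap Gm12945 on the opposite strand over 20.8% of their length, and Gm12945 was not analysed here. Of the 4 pairs computed but not plotted, Dnah5 over Dnah17 ran the other way, at 0.768 in uterus and 2.57 in brain, and Cfap100 over Cfap73 was 2.80 in uterus and 3.47 in brain. Dnah5 over Dnah11 was 7.03 to 32.1 in single uterus libraries and 0.744 to 0.928 in single brain libraries, and Dnaaf5 over Dnaaf1 was 281 in uterus and 15.2 in brain. Tekt3 had 0 counts in uterus and 16 in brain, at least 5.29-fold higher in brain against 3 counts over the 4 uterus libraries.

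**Figure D3:**
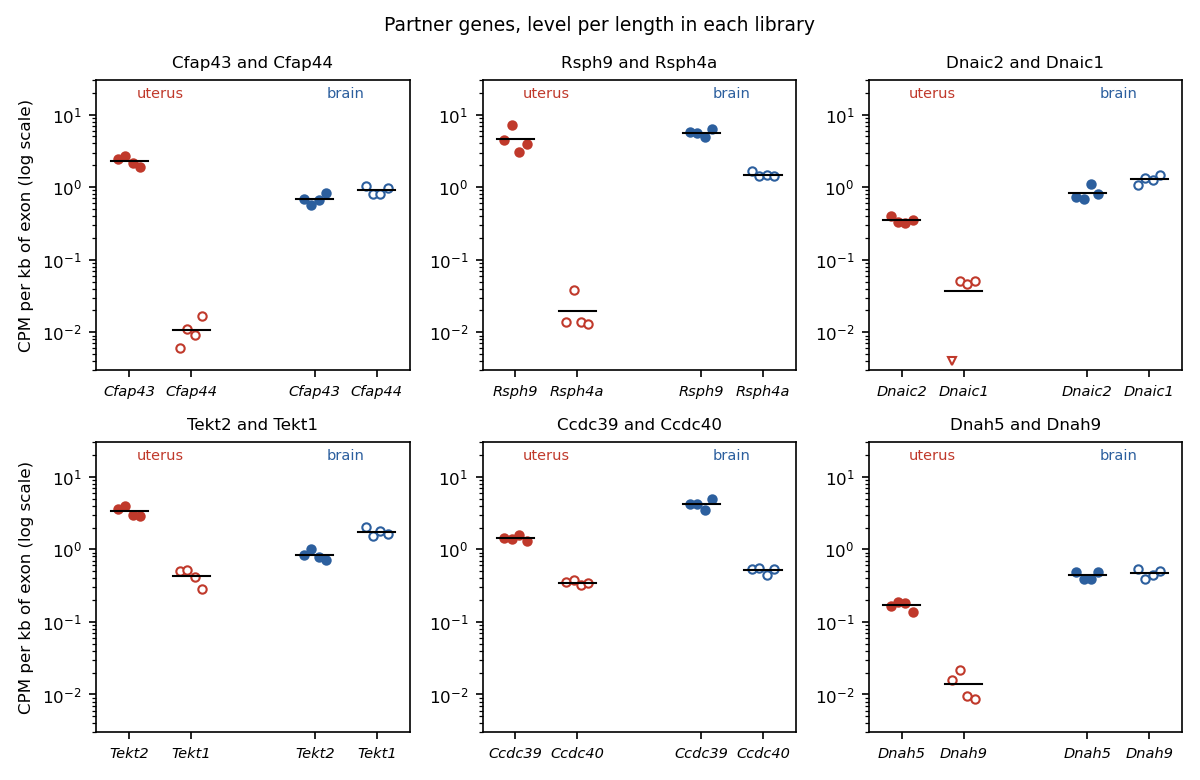
Level of 6 pairs of partner genes as CPM per kb of exon on a log axis in the 4 uterus libraries (red, left) and 4 brain libraries (blue, right), filled for the first gene and open for the second. Lines are means of 4 libraries and triangles are 0 counts. Cfap43, Rsph9, Dnaic2, Tekt2 and Dnah5 lie 7.73 to 234 times above their partners in uterus and 0.481 to 3.79 times their level in brain, while Ccdc39 is above Ccdc40 in both organs. The pairs were chosen after the values were seen.

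Proteins inside the doublet wall came next, with 7 genes: Cfap20 higher in uterus, Cfap45, Cfap52 and Cfap161 higher in brain, and Cfap126, Cfap53 and Cfap77 not passing. Cfap20, which lies at the inner junction of the doublet, measured 57.2, 54.3, 56.3 and 49.4 CPM in uterus, against 47.3, 46.9, 44.8 and 46.7 CPM in brain (0.23 ± 0.06, adjusted p = 0.00352). The gap between the organs was small and the libraries did not overlap. Cfap45 measured 1.91, 1.72, 2.08 and 2.03 CPM in uterus, against 4.51, 4.22, 4.23 and 3.90 CPM in brain (-1.12 ± 0.14, adjusted p = 2.6e-05). Cfap126, known as Flattop and placed at basal bodies in mouse, measured 2.39, 2.26, 1.88 and 1.86 CPM in uterus, against 1.97, 1.57, 2.29 and 1.58 CPM in brain (0.18 ± 0.20, adjusted p = 0.403). Brain libraries 1 and 3 fell within the range of the uterus libraries. Cfap161 carries a stretch of up to 177 nt that is near-identical in transcripts of many other genes, and Cfap20 shares 171 nt with Stip1. Cfap77 averaged 0.289 ± 0.180 CPM in uterus and 0.623 ± 0.265 CPM in brain (SD, n = 4 each; adjusted p = 0.0724), and its value of -1.10 was -1.42 without uterus library 4 (adjusted p = 0.037).

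Cfap36, Cfap97, Cfap157, Cfap70 and Cfap99 were the other tested Cfap genes, and all 5 were called higher in brain. Cfap36, which binds the small GTPase ARL3, measured 43.0, 39.8, 39.6 and 41.8 CPM in uterus, against 105, 105, 95.8 and 91.2 CPM in brain (-1.27 ± 0.06, adjusted p = 8.7e-09). With upper-quartile or library-size scaling it did not pass the 2-fold test (-1.02 in each, adjusted p = 0.324 and 0.331). Cfap97 measured 37.1, 38.6, 37.9 and 42.1 CPM in uterus, against 44.6, 40.7, 44.8 and 41.7 CPM in brain (-0.14 ± 0.06, adjusted p = 0.0451), and with upper-quartile or library-size scaling it was 0.11. Cfap36 had a wide gap between organs, while the organs overlapped for Cfap97, whose call was also lost when any library but uterus 4, brain 2 and brain 4 was left out (-0.10 to -0.14, adjusted p = 0.0838 to 0.165). Cfap157, required for sperm flagella in mouse, measured 1.94, 1.27, 1.55 and 1.17 CPM in uterus, against 2.0, 2.44, 2.19 and 2.27 CPM in brain (-0.59 ± 0.21, adjusted p = 0.0203). Its libraries barely failed to overlap, and leaving out uterus library 2, uterus library 4 or brain library 2 ended the call (-0.48 to -0.53, adjusted p = 0.0504 to 0.0611), as did upper-quartile or library-size scaling (-0.33 in each, adjusted p = 0.153).

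Cfap70, linked to the outer arm, measured 0.956, 1.58, 1.14 and 0.839 CPM in uterus, against 2.40, 1.41, 2.24 and 2.36 CPM in brain (-0.90 ± 0.27, adjusted p = 0.00917). Its overlap came from uterus library 2, which was above brain library 2. Cfap99 had 3 uterus counts and 204 brain counts, a ratio of 67.4 for brain over uterus (exact 95% interval 22.7 to 329.7), with a fitted value of -6.80 without uterus library 3. Cfap58 had 0 counts in uterus and 50 in brain, at least 16.5-fold higher in brain against 3 counts over the 4 uterus libraries. Cfap99 and Cfap58 thus had at most 2 counts in any uterus library.

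Ccdc153, Tmem212 and Sec14l3, used as markers of ciliated ependymal cells in mouse brain, were all higher in brain. Ccdc153 had counts of 2, 0, 0 and 0 in uterus, against 158, 154, 147 and 149 in brain, a ratio of 301 for brain over uterus (exact 95% interval 83.1 to 2495), and its fitted value was -10.25 without uterus library 1. Sec14l3 had 0 counts in each uterus library, against 0.648, 0.784, 1.22 and 2.27 CPM in brain, at least 68.4-fold higher in brain against 3 counts over the 4 uterus libraries. Tmem212 measured 0.176, 0, 0.152 and 0.117 CPM in uterus, against 2.24, 1.41, 2.10 and 1.63 CPM in brain (-4.03 ± 0.50, adjusted p = 2.1e-05). The 3 genes together reached at most 0.227 CPM in a uterus library and at least 5.74 CPM in a brain library.

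Other members that share exon with genes of the opposite strand include Dnah3 with Lyrm1 (10.5% of its length), Spag17 with Wdr3 (9.7%) and Ccdc39, given above. Wdr3, which shares 820 nt with Spag17, averaged 55.5 CPM in uterus and 31.0 CPM in brain, which runs against the direction of Spag17. Spag17 had 3 uterus counts in all. Rsph10b shares 10.5% of its length with Gm42421 on its own strand, which was not analysed here.

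Ordered by level per kb of exon, Cfap36, Cfap20 and Cfap97 came first in both organs, and together they made up 46.1% of the summed level of the 68 genes in uterus and 44.0% in brain. The next in uterus were Dnaaf5 (4.77 ± 0.444 CPM per kb), Rsph9 (4.63 ± 1.77), Dnaaf2 (4.13 ± 0.227) and Tekt2 (3.34 ± 0.518; SD, n = 4 each), of which Rsph9 does not differ from its neighbours beyond its spread. In brain, Rsph9 (5.64 ± 0.570 CPM per kb), Tekt5 (5.08 ± 0.280), Ccdc39 (4.26 ± 0.623) and Cfap69 (4.08 ± 0.151; SD, n = 4 each) came next, each within the spread of a neighbour. The Dnaaf assembly factors took 14.4% of the summed level per kb in uterus and 3.73% in brain. Outer arm genes took 1.14% in uterus and 3.01% in brain, and central pair genes took 3.44% in uterus and 7.30% in brain. The median member stood at 0.140 CPM per kb in uterus and 0.631 CPM per kb in brain, against medians over all tested genes of 5.05 CPM per kb in uterus and 5.34 CPM per kb in brain. Between animals, the 30 members at 1 CPM or more in all libraries had a median coefficient of variation of 14.5% in uterus and 11.9% in brain. It was 7.64% and 6.04% over all 12316 genes that reached 1 CPM in all libraries. These sets were not matched for level, and counting error weighs more at low counts.

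Regulators of multiciliated cell fate were given beside the members. Of 14 regulators in the table, 11 were tested, with 4 higher in uterus (background 43.4%) and 7 higher in brain (background 43.5%). Foxj1, the forkhead factor that drives motile ciliogenesis, measured 0.931, 0.423, 0.583 and 0.816 CPM in uterus, against 14.6, 13.2, 15.4 and 15.7 CPM in brain (-4.42 ± 0.21, adjusted p = 8.8e-09). Rfx4 averaged 0.0361 ± 0.0241 CPM in uterus and 17.2 ± 1.24 CPM in brain, Trp73 averaged 0.0623 ± 0.0641 CPM in uterus and 3.60 ± 0.387 CPM in brain, and Gmnc averaged 0.199 ± 0.0870 CPM in uterus and 2.62 ± 0.466 CPM in brain (SD, n = 4 each). Mcidas, an inducer of the multiciliated fate, had 0 counts in uterus and 33 in brain, at least 10.9-fold higher in brain against 3 counts over the 4 uterus libraries. Going against the median of -0.97, Rfx2 averaged 15.3 ± 3.13 CPM in uterus and 4.06 ± 0.286 CPM in brain (1.91 ± 0.15), and Myb averaged 3.78 ± 2.28 CPM in uterus and 1.19 ± 0.189 CPM in brain (1.66 ± 0.40; SD, n = 4 each). Rfx3 averaged 18.3 ± 0.815 CPM in uterus and 70.8 ± 5.79 CPM in brain, and both factors bind the X-box. The uterus and brain libraries did not overlap for any of these regulators.

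**Figure D4:**
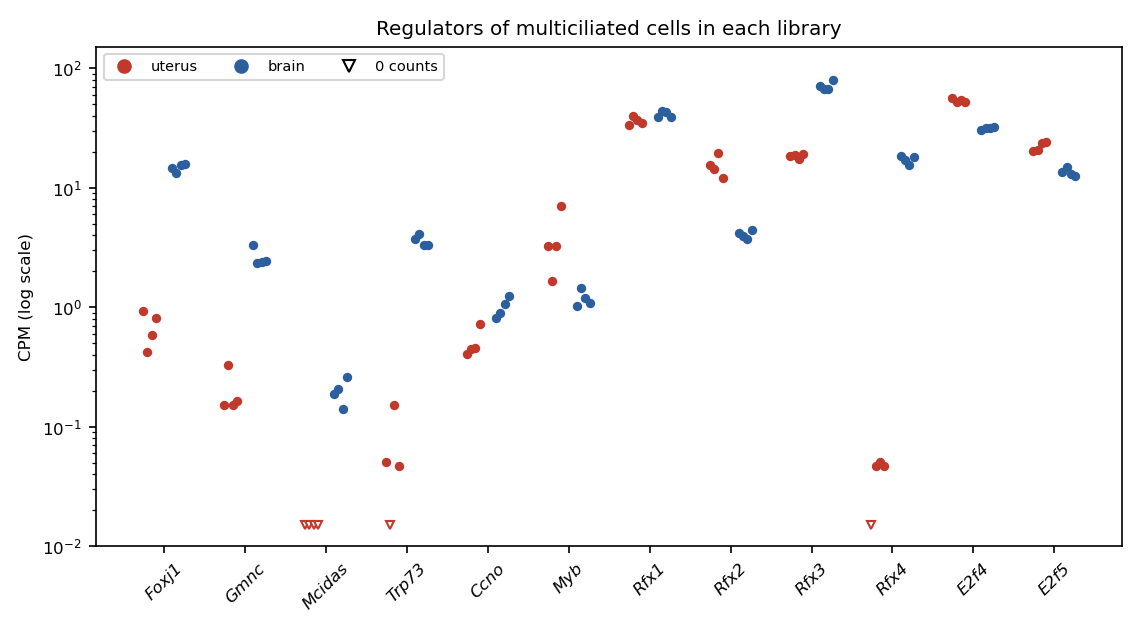
CPM on a log axis of 12 regulators of multiciliated cells in the 4 uterus libraries (red, left of each gene) and the 4 brain libraries (blue, right), with triangles at 0 counts. Foxj1, Gmnc, Mcidas, Trp73, Ccno, Rfx3 and Rfx4 are lower in uterus with no overlap, and Myb, Rfx2, E2f4 and E2f5 are higher.

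A list of 41 other motile axoneme and assembly genes outside the 68 had 39 tested genes. Of these, 7 were higher in uterus (background 43.4%), 30 were higher in brain (background 43.5%) and 2 did not pass. The list had a median of -1.74. Its 3 largest fitted changes, all on 2 uterus counts or fewer, were Drc7, of the nexin-dynein regulatory complex, with 2 uterus counts and 765 brain counts, a ratio of 379 for brain over uterus (exact 95% interval 105 to 3137), and Tcte1 and Armc4, each with 0 counts in uterus. Tcte1, also of that complex, was at least 83.6-fold higher in brain and Armc4, of the outer arm docking machinery, at least 58.8-fold higher in brain, against 3 counts over the 4 uterus libraries. Bounds do not rank these genes: Drc1, of the same complex, averaged 0.140 ± 0.0812 CPM in uterus and 14.9 ± 0.418 CPM in brain (SD, n = 4 each; -6.70 ± 0.26). Spef1, a microtubule-bundling protein of the central pair, and Mns1, a protein inside the doublets, went the other way, with averages of 28.0 ± 0.638 and 10.3 ± 1.93 CPM in uterus, against 9.42 ± 1.05 and 3.55 ± 0.803 CPM in brain (SD, n = 4 each; 1.57 ± 0.09 and 1.54 ± 0.20, adjusted p = 3.6e-08 and 2.8e-05).

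Intraflagellar transport carries cargo in motile and non-motile cilia alike, and its 30 genes were split, with a median of -0.21. In uterus 9 were higher (background 43.4%), in brain 17 were higher (background 43.5%), and 4 did not pass. With upper-quartile or library-size scaling the split was 13 higher in uterus and 9 higher in brain, with a median of 0.05, so no direction is given for the list. Its largest changes were Kif17 (-3.34 ± 0.16), Kifap3 (-2.82 ± 0.04) and Ift22 (-1.49 ± 0.09), toward brain. Ift43 (1.37 ± 0.08) and Hspb11 (1.00 ± 0.11) were toward uterus.

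Of 7 tested ependymal markers outside the axoneme, 2 passed toward uterus (background 43.4%) and 5 toward brain (background 43.5%). Fam216b, one of the 5, had 0 counts in uterus and was at least 106-fold higher in brain, and Fam183b averaged 0.0978 ± 0.0230 CPM in uterus and 2.20 ± 0.359 CPM in brain (SD, n = 4 each). The list's members toward uterus, Rarres2 and Calml4, averaged 90.7 ± 5.89 and 8.16 ± 1.14 CPM in uterus, against 5.04 ± 0.241 and 3.05 ± 0.646 CPM in brain (SD, n = 4 each). Of 11 choroid plexus markers, the water channel Aqp1 was higher in uterus (background 43.4%) and 10 were higher in brain (background 43.5%). The largest fitted changes were Otx2, with 0 counts in uterus and at least 449.5-fold higher in brain, Kl (0.0554 ± 0.0325 CPM in uterus and 37.7 ± 5.59 CPM in brain) and Kcne2 (0.0851 ± 0.0324 CPM in uterus and 7.11 ± 0.852 CPM in brain; SD, n = 4 each). Ttr, a carrier of thyroid hormone and named for its level after the values were seen, was at 10.3 ± 5.65 CPM in uterus and 791 ± 119 CPM in brain (SD, n = 4 each). All 3 genes listed as oviduct markers (Pax8, Ovgp1, Pax2) were higher in uterus (background 43.4%). They summed to 65.6 to 129 CPM there, against 9.70 to 9.96 CPM in brain. In uterus, Pax8 averaged 51.2 ± 7.33 CPM, Ovgp1 averaged 30.6 ± 16.0 CPM and Pax2 averaged 11.6 ± 3.78 CPM (SD, n = 4 each). Whether these genes mark oviduct cells in whole uterus was not tested. The part of any of these cells in the members' levels was not tested.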

How the data were processed

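RNA of 4 uterus and 4 brain libraries was measured with a stranded kit that removes ribosomal RNA, per the labels. The deposited table holds raw counts per gene in whole numbers; FastQC, HISAT2 2.0.3, featureCounts, edgeR and the GRCm38.p5 build are named in the submitters' processing notes. The sources used here do not give the annotation release, the strand setting of the counting or how reads with several places were handled. All 8 columns of counts were matched to a sample by title.

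From these counts, R 4.3.3 with edgeR 4.0.16 removed genes with low counts (filterByExpr by organ, a minimum of 10 counts in a library of median size), scaled libraries by TMM, and compared uterus with brain on the 16074 genes left by a quasi-likelihood F test. The test was two-sided with Benjamini-Hochberg adjustment over all tested genes at 0.05, and glmTreat tested against a 2-fold change on the same fit. Each log2 fold change sets uterus over brain. Its SE was taken as the unshrunken value over the square root of F, and can be too small where counts are few. No term for animal was fitted. The fit was also run on simulated data in which most genes did not change and the changed ones had ample counts. That run does not bear on members with few counts. Each library is 1 animal's organ, so the spread is between animals. With 0 counts in uterus, folds are bounds against 3 counts over its 4 libraries. With 1 to 3 counts, the ratio has an exact 95% interval. Both cover counting error only, since reads lack molecular identifiers and may be copies of 1 molecule.

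Exon lengths, coordinates and overlaps came from GENCODE M21 (GRCm38), which held all 68 members, and copies from BLAST+ 2.17.0 at 98% identity over 150 nt or more. Figures used Python 3.11.15 with matplotlib 3.10.9. The alternatives tried were scaling by library size, upper quartile or RLE, 2 other filters, DESeq2 1.42.0, limma-voom (limma 3.58.1), a replicate block, a threshold of 0.01 and leaving out each library. Summing the Dnah7 and Rsph3 copies was added after the data were seen. The members and lists were chosen with earlier results of these data known. Values in every library are given for the 3 members of each role with the highest level per kb in brain, every member higher in uterus, and every member at 1 CPM or more in an organ that did not pass the 2-fold test. Lists other than the organ, epithelial, oviduct and germ cell markers give their 3 largest changes and up to 2 members against their median. Deup1, Drc3 and Tnp1, named in the lists, were not analysed here.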

Additional observations from a re-analysis of the deposited data

Results flagged for a closer look

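Of 126 sets of 4 libraries (63 tested genes in each organ), 14 held a library whose gap to its nearest neighbour took up more than 82.9% of the whole range. For 4 independent values of a normal distribution, chance would mark about 1 set in 20 this way. That rate need not hold for sets of few counts, so no excess over chance is read from it. In uterus, the lowest library stood apart for Dnah8 (1.26 CPM in library 4, against 1.58 to 1.61 in the others) and Dnaic1 (0 CPM in library 1, against 0.127 to 0.141). The highest uterus library stood apart for Dnah6 (13.1 CPM in library 1, against 8.51 to 9.11), Rsph3b (7.37 CPM in library 1, against 6.18 to 6.32), Rsph4a (0.141 CPM in library 2, against 0.0466 to 0.0507), Cfap73 (0.282 CPM in library 2, against 0.0755 to 0.0932), Cfap52 (0.466 CPM in library 4, against 0.0470 to 0.101) and Ccdc153 (0.0503 CPM in library 1, against 0 in the others).

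In brain, the highest library stood apart for Dnah14 (4.13 CPM in library 2, against 1.77 to 2.17), Dnaaf2 (6.99 CPM in library 1, against 5.63 to 5.72), Rsph4a (6.10 CPM in library 1, against 5.16 to 5.29) and Cfap99 (1.52 CPM in library 3, against 1.11 to 1.14). The lowest brain library stood apart for Ccdc40 (2.66 CPM in library 3, against 3.24 to 3.32) and Cfap70 (1.41 CPM in library 2, against 2.24 to 2.40). The 4 uterus values under 0.5 CPM among the highest ones rest on 2 to 20 counts.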

How the results depend on the processing

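The counts of members kept within 1.5 times their value under all alternatives except those higher in uterus past the 2-fold test, which were 5 as reported, 3 with DESeq2 and 3 at an adjusted p of 0.01. With 1 library left out, 9 to 10 members were higher in uterus and 45 to 50 in brain, and 5 to 6 passed the 2-fold test toward uterus and 35 to 39 toward brain. Upper-quartile and library-size scaling moved the median of all tested genes to 0.268 and 0.270, against 0.012 with TMM, and the all-gene split to 50.9% higher in uterus and 37.1% higher in brain (upper-quartile), against 43.4% and 43.5%. Under both, 12 members were higher in uterus and 43 in brain, and Cfap97 was 0.11 in place of -0.14. Of 1002 member values under alternatives, 966 kept their direction and call, 19 gained a call, 15 lost it and 2 reversed, all in 10 members. DESeq2 did not pass Dnah14 (1.87, adjusted p = 0.0552) or Dnaaf2 (1.18, adjusted p = 0.203) in the 2-fold test. The causes were not tested.

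Replicate numbers gave no sign of pairing the organs. As deviations from the organ's mean, same-numbered libraries correlated at -0.15, -0.08, 0.13 and 0.10, and libraries of different number at -0.16 to 0.23. This cannot tell whether same-numbered organs came from the same mouse, since organs of 1 mouse need not deviate alike. A replicate block gave 9 members higher in uterus and 46 in brain, and 5 and 36 past the 2-fold test, the same totals from partly different members. It called Hydin (-1.29, adjusted p = 0.0401) and Cfap77 (-1.18, adjusted p = 0.0346) and did not call Cfap97 (-0.14, adjusted p = 0.0882) or Cfap157 (-0.61, adjusted p = 0.05). In the 2-fold test it passed Dnaaf5 (1.16, adjusted p = 0.0411) and not Dnah14 (1.83, adjusted p = 0.0622).

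Members with few uterus counts have folds limited by depth.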

Other observations

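The cytoplasmic dynein and dynactin genes move cargo along microtubules in most cells, and none of those listed is a member of the set described here. Of 16 tested, 1 was higher in uterus (background 43.4%), 12 were higher in brain (background 43.5%) and 3 did not pass. The median log2 fold change was -0.89. With upper-quartile or library-size scaling, 4 were higher in uterus and 12 were higher in brain. Dync1i1, an intermediate chain, averaged 5.28 ± 1.27 CPM in uterus and 154 ± 2.94 CPM in brain (-4.87 ± 0.15). Dynll2, a light chain, averaged 148 ± 14.8 CPM in uterus and 882 ± 13.8 CPM in brain (-2.57 ± 0.07), and Dctn1, the large dynactin subunit, averaged 118 ± 1.59 CPM in uterus and 434 ± 27.0 CPM in brain (-1.88 ± 0.06; SD, n = 4 each). Dynll1, the other light chain of that family, averaged 298 ± 19.1 CPM in uterus and 211 ± 10.4 CPM in brain (0.50 ± 0.06). Dynlrb1, the roadblock paralog of Dynlrb2, averaged 72.3 ± 1.29 CPM in uterus and 101 ± 8.18 CPM in brain (-0.49 ± 0.06; SD, n = 4 each), and it was named after its value was seen.

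All 9 genes of the BBSome, a coat that carries membrane proteins out of cilia, were called higher in brain (background 43.5%). The median was -0.86, and 8 of 9 were called with upper-quartile or library-size scaling. Bbs4 averaged 12.1 ± 1.23 CPM in uterus and 63.8 ± 2.06 CPM in brain (-2.40 ± 0.08), Bbs1 averaged 15.1 ± 1.53 CPM in uterus and 61.2 ± 4.91 CPM in brain (-2.02 ± 0.09), and Bbs7 averaged 15.3 ± 1.27 CPM in uterus and 28.8 ± 1.33 CPM in brain (-0.91 ± 0.08; SD, n = 4 each).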
